A study of Mus musculus with 5 samples.

Results

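The cytosolic ribosomal protein genes were followed through 12893 single mouse bone marrow cells. They were taken from the count table by name: symbols that begin with Rpl or Rps and a digit, plus Rplp0, Rplp1, Rplp2 and Rpsa, without the Rps6k kinases and without names carrying -ps. The rule found 86 of 15287 genes, of which 33 are named for the small (40S) subunit, 51 for the large (60S) subunit, and 2 carry such a name without being a ribosomal protein. Those 2 are Rps19bp1, a partner of the protein RPS19, and Rpl7l1, a factor of ribosome assembly. Both were kept in the group, which is called the ribosomal protein genes below, and left out of the counts by subunit. By position in the GENCODE annotation (GRCm38), 85 are protein coding and Rpl6l is a processed pseudogene. The 86 genes held 21835508 UMIs, the counts of distinct captured transcripts. All mice carried the alleles Fgd5CreERT2/+ and Rosa26Tomato/+, were 20 weeks of age and had received no treatment. In the Rosa26 allele a lox-stop-lox cassette precedes Tomato. The Fgd5 allele is a knock-in that places ZsGreen and CreERT2 under the endogenous Fgd5 gene, a gene of hematopoietic stem cells (HSCs), so reporter-positive cells are those in which this gene is active, and 1 Fgd5 copy carries the insertion in every cell compared here. The number of mice was not given.

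Lineage-negative c-kit+ cells (Lin-kit+, a mixture of stem and progenitor cells) made up 3 libraries, called a, b and c. Reporter-positive Lin-kit+ cells (Fgd5+) and reporter-positive cells that also had the Sca-1+CD48-CD150+ phenotype (HSC-Fgd5+) made up 1 library each. The table marks libraries by a barcode suffix and names no population, so suffixes were matched to populations through the cell numbers of the study, and the sample labels disagree on which reporter-positive sample had the HSC gate. Whether the libraries are separate mice or separate loadings of 1 suspension was not stated, so errors and p-values cover the spread between these libraries, which may be technical.

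A cytosolic ribosome joins a small subunit, which reads the mRNA, with a large subunit, which forms the peptide bond. Each of its proteins is needed in about equal number, and most are encoded by 1 active gene with many silent copies elsewhere in the genome. Their mRNAs usually start with a C followed by a run of pyrimidines, the 5′ terminal oligopyrimidine (TOP) tract, through which their translation is controlled together. In blood formation, loss of 1 copy of several of these genes causes Diamond-Blackfan anemia, in which red cell precursors fail, and HSCs are known to keep protein synthesis low. Neutrophil precursors stop dividing as they mature and fill first with primary and then with secondary granules.

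The start regions of 7 genes on which the results below turn show how a gene and its copy can differ. Each line gives 40 bases before and 20 bases from the start annotated by RefSeq (GRCm38.p6), and capitals mark the longest run of a C followed by at least 4 pyrimidines that reaches into the 10 bases on either side of that start. The first 3 are Rps27 and its 2 copies, the next 2 are Rpl36a and its copy, and the last 2 are the genes that fell most and least across neutrophil stages.
Rps27, chr3:90213629-90213688, minus strand: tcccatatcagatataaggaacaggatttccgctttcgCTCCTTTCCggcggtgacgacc
Rps27rt, chr9:114982720-114982779, minus strand: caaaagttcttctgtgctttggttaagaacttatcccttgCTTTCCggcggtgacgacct
Rps27l, chr9:66946046-66946105, plus strand: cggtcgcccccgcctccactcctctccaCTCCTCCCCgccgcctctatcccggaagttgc
Rpl36a, chrX:134585614-134585673, plus strand: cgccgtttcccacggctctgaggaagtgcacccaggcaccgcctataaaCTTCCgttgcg
Rpl36al, chr12:69184048-69184107, minus strand: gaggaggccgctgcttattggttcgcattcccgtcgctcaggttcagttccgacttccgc
Rpl12, chr2:32961672-32961731, plus strand: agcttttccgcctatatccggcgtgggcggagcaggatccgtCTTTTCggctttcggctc
Rps9, chr7:3704001-3704060, plus strand: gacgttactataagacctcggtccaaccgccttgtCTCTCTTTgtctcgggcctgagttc
Rps27rt continued the Rps27 sequence from its first transcribed bases on and not before them. The longest run shared by both genes was 38 bases in the 50 bases after the start and 10 bases in the 250 before it. Rps27l shared at most 5 and 7 bases with Rps27 in the same windows. No tract within this limit was found for Rpl36al, whose CTTCC lies further downstream in the line shown.

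RefSeq start windows of 300 bases were on hand for 65 of the 86 genes. A pyrimidine tract as defined above was present in 40 of them (61.5%) and in 35.8% of 27025 windows of all genes. The letters CCGGAA, the core bound by ETS factors, were found on either strand in 33 (50.8%) against 15.2% of all windows, and the GC box GGGCGG, also on either strand, in 39 (60%) against 35.9%. TATAA on the gene's own strand within the 50 bases before the start was found in 5 (7.69%) against 5.33%. These are counts of letters, not of bound sites.

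Depth ran from 2166655 to 36080242 UMIs per library. The HSC-Fgd5+ library stood apart in quality: 114 of its cells missed a minimum of 1000 UMIs or a limit of 10% of UMIs from mitochondrial genes, against 3 cells in the Fgd5+ library and 8 to 36 in the Lin-kit+ libraries. Mitochondrial UMIs made up 4.8% of that library and 3.19% to 3.34% of the others. Across libraries, 62 barcodes occurred more than once, and 154 cells were called doublets. Cells were clustered without the ribosomal protein genes, so that their levels could be compared between clusters, and clusters were named from marker lists. Of 20 clusters, 3 remained unnamed and 10 cell classes had enough cells in each Lin-kit+ library (10073 of 11581 Lin-kit+ cells). The HSC-like class of the Lin-kit+ libraries passed its marker list but lay apart from most reporter-positive cells, with 1233 cells in another cluster and 61 in the largest reporter-positive one. It had 2.04 CPM (UMIs per 1000000 UMIs) of Slamf1 (CD150) and 242 of Cd48, against 36.6 and 4.74 in the reporter-positive libraries.

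Ribosomal protein transcripts took up more of the UMIs in reporter-positive cells than in Lin-kit+ cells as a whole. Their share of all UMIs was 31.3%, 30.6% and 29.6% in Lin-kit+ a, b and c, 37.4% in Fgd5+ and 35.0% in HSC-Fgd5+ cells. Both reporter-positive libraries were above all 3 Lin-kit+ libraries, by 5.73 percentage points on average (36.2% against 30.5% ± 0.836, SD, n = 3). With granule and globin genes left out of the total the difference was 2.70 points (36.3% against 33.6%), and with the median over cells in place of pooled UMIs it was 3.41 points. Granule and globin genes made up 8.45% to 9.82% of UMIs in the Lin-kit+ libraries and 0.273% and 0.112% in Fgd5+ and HSC-Fgd5+ cells. An exact two-sided permutation test over the 5 libraries gave p = 0.2, as the doubled one-sided p over 10 splits, which is the smallest value this form of the test allows here. Wilson 95% intervals, which cover counting error only, were at most 0.0635 points to either side.

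The order reversed when only HSC-like cells were taken from the Lin-kit+ libraries. By the Slamf1 and Cd48 levels above, this class as a whole differed from the reporter-positive cells. The share in the HSC-like cells was 38.3%, 38.1% and 37.0% in a, b and c. The reporter-positive libraries were thus 1.62 points lower on average and the groups overlapped (exact permutation p = 0.4). The 15, 20 and 26 HSC-like cells of a, b and c in the largest reporter-positive cluster had 40.9%, 38.9% and 39.6%. Per cell, the Fgd5+ library was narrow, with 90% of cells between 30.4% and 43.1%. The HSC-Fgd5+ library reached from 14.8% to 42.6%, and its 114 low-quality cells had a pooled share of 21.4% with 15.1% mitochondrial UMIs. Without them its share was 36.3%. In dividing reporter-positive cells, which formed a cluster of their own, the share was 32.9% in 44 Fgd5+ cells and 31.6% in 24 HSC-Fgd5+ cells, below the 38.2% and 35.6% of the main reporter-positive cluster. These cells had a median of 10002.5 and 10233.5 UMIs, against 4202 and 3602.

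**Figure D1:**
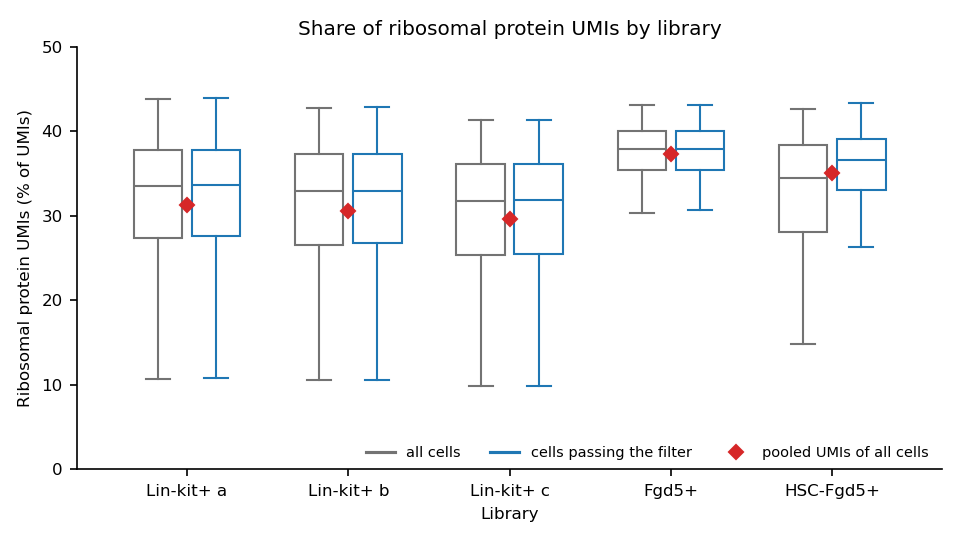
Share of UMIs from ribosomal protein genes (y axis, percent) in the cells of 5 libraries, as boxes of the quartiles with whiskers at the 5th and 95th percentile, for all cells and for cells passing the limits on UMIs and mitochondrial genes. Red diamonds are pooled UMIs: 37.4% and 35.0% in the reporter-positive libraries and 29.6% to 31.3% in Lin-kit+ cells, and the lower whisker of HSC-Fgd5+ moves up from 14.8% to 26.3% with the filter.

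Between cell classes the share changed far more than between libraries. It was highest in erythroid-like cells, at 40.8%, 40.4% and 39.1% in Lin-kit+ a, b and c, and lowest in late neutrophil-like cells, at 10.3%, 10.9% and 11.0%. The difference was 29.4 points (SD 1.22, n = 3 libraries), or 3.74-fold. Lymphoid-primed multipotent-like cells (38.1% ± 0.478), HSC-like cells (37.8% ± 0.72) and megakaryocyte-like cells (37.6% ± 1.18) followed the erythroid-like cells, and their libraries overlapped with each other. Mast or basophil-like cells (33.8% ± 0.792) and monocyte-like cells (32.9% ± 0.57) also overlapped. Early neutrophil-like cells had 30.4% ± 0.905 and dendritic-like cells 24.5% ± 0.302. No other neighbours in this order overlapped in their libraries.

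**Figure D2:**
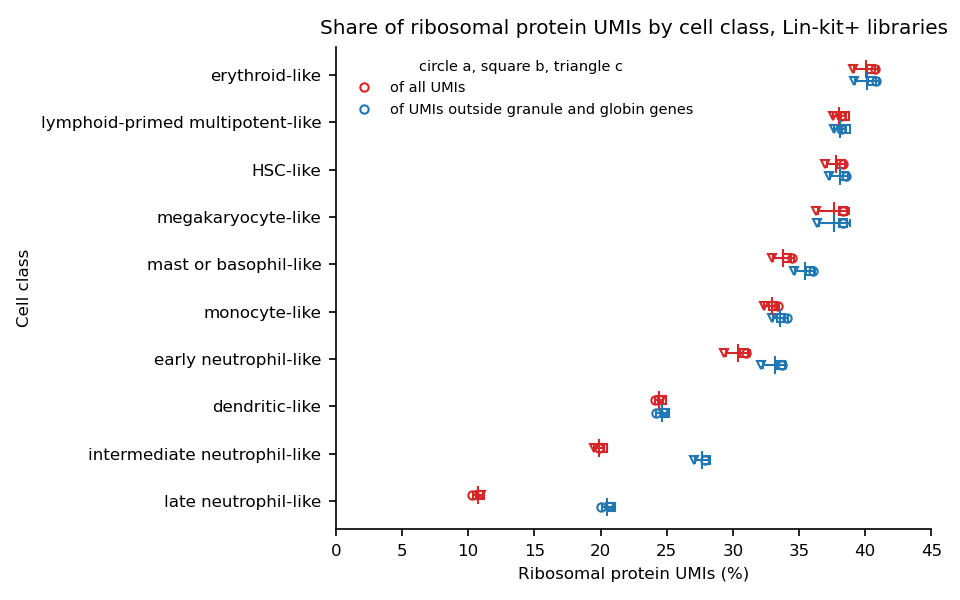
Share of UMIs from ribosomal protein genes (x axis, percent) in 10 cell classes of the 3 Lin-kit+ libraries (circle a, square b, triangle c), with mean and SD, taken of all UMIs (red) or of UMIs outside granule and globin genes (blue). Erythroid-like cells are at the top near 40.1% and late neutrophil-like cells at the bottom, at 10.7% of all UMIs and 20.5% of the remaining UMIs.

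Along the neutrophil lineage the share fell from 31.0%, 30.9% and 29.4% (early, the stage with primary granule genes) to 19.9%, 20.2% and 19.5% (intermediate) and to the values of the late stage above, in which the secondary granule gene Ltf is on. Granule and globin genes rose in parallel, from 8.06% to 8.70% of UMIs in early cells to 47.0% to 48.6% in late cells. With those genes left out of the total, the share still went from 33.2% ± 0.869 to 27.6% ± 0.523 and 20.5% ± 0.434, so part of the drop remained in a total without them. In molecules per cell, the median fell from 2264.5, 1527 and 1779 ribosomal protein UMIs in early cells to 1306, 868 and 1082 in intermediate and 599.5, 437 and 511 in late cells. The late medians were 26.5% to 28.7% of the early ones, whereas the medians of UMIs from neither ribosomal protein, granule nor globin genes were 51.9% to 58.3% of the early ones. UMIs per cell do not separate less RNA in a cell from fewer of its molecules captured.

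Gene by gene, the fall across neutrophil stages reached each of the 84 genes with enough counts to be tested. From early to late cells, 84 of 84 were lower and 0 higher at an adjusted p under 0.05 (edgeR quasi-likelihood test, TMM scaling, library as block), where 24.3% of 8860 genes were lower and 26.2% higher. At an unadjusted p under 0.05, 0 genes were higher, by edgeR and by DESeq2. The median log2 change was -0.65, against 0.01 over all genes. In CPM, each of the 84 genes fell from early to intermediate to late within each of the 3 libraries, and late and early libraries did not overlap for 84 genes (lower for 56.3% of all genes and higher for 7.87%). Late cells kept 23.8% to 47.0% of the early level (median 35.8%). TMM sets the middle of the genes to no change, and scaling by library totals instead moved the median gene by -0.80, so the size of the fall depends on the scaling and its direction does not: with totals 84 were lower again. Rpl3l and Rpl39l were too rare to be tested.

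Rpl12, a protein of the stalk base of the large subunit, fell most. It had 2015, 1829 and 1727 CPM in early cells of a, b and c, 1064, 974 and 951 in intermediate cells and 457, 422 and 444 in late cells. The stages did not overlap. From early to late the log2 change was -1.23 with TMM (SE 0.0538, adjusted p = 1.47e-39, edgeR) and -2.05 with library totals. The log2 changes that follow are those with TMM unless stated, and the CPM fell by more. Rpl14, Rpl36 and Rpl27a of the large subunit had log2 changes of -1.08, -1.06 and -1.05. Rps2, which lies at the entry of the mRNA channel of the small subunit, had -1.08 (SE 0.0559). Its level differed between libraries: it was at 4141 and 3458 CPM in early cells of a and b and at 1294 in c, and at 932, 928 and 395 in late cells, so that the fall was seen within each library. The genes with the smallest fall were those of small subunit proteins. Rps9 went from 3934, 3692 and 3647 to 1785, 1693 and 1823 CPM. Its log2 change was -0.26 with TMM (SE 0.0483, adjusted p = 1.91e-06, edgeR) and -1.08 with library totals. Rps24, Rpsa and Rps10 had changes of -0.30, -0.31 and -0.33. The median change was -0.62 over 33 small subunit genes and -0.74 over 49 large subunit genes, and the small subunit share of ribosomal protein UMIs was 44.4% ± 0.133 in early, 45.3% ± 0.176 in intermediate and 46.3% ± 0.224 in late cells, with no overlap between stages. In the other 7 classes that share was between 44.0% and 45.1%.

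**Figure D3:**
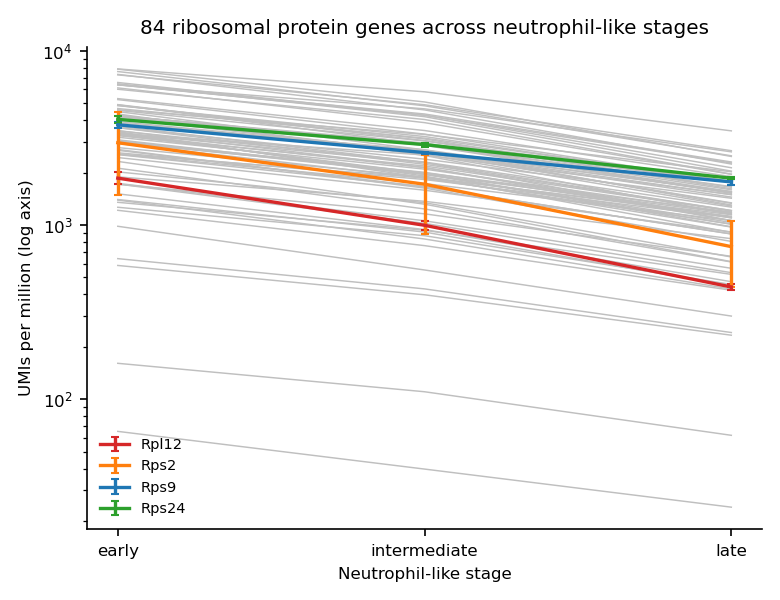
Mean CPM (y axis, log scale) of 84 ribosomal protein genes in early, intermediate and late neutrophil-like cells of the 3 Lin-kit+ libraries, with the SD for 4 named genes. Each line goes down at both steps, Rpl12 most steeply (to 441 from 1857) and Rps9 least (to 1767 from 3758), and the wide bars of Rps2 come from its low level in library c.

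Measured against the summed ribosomal protein UMIs, a scaling chosen after the values were seen, the fall was uneven. From early to late, 25 genes were then higher and 33 lower within the group (51.3% and 8.87% of all genes on this scale). Rps9 (log2 change 0.41), Rps24 (0.38) and Rpsa (0.35) gained most and Rpl12 (-0.57), Rpl14 (-0.41) and Rps2 (-0.41) lost most. From early to intermediate, 72 of 84 genes were lower and 0 higher (edgeR; 16.3% and 20.1% of 8860 genes; 0 higher at an unadjusted p under 0.05 and by DESeq2). Changes were smaller, with a median of -0.20. Rpl12 (-0.49), Rplp1, a protein of the stalk that recruits elongation factors (-0.46), Rpl27a (-0.42), Rps27l (-0.41) and Rpl36 (-0.41) fell most. Without the library block 44 genes passed, and without library b 32 did.

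Relative to other transcripts, ribosomal protein genes were slightly higher in erythroid-like than in HSC-like cells. In the median of molecules per cell they were not. It was 1864, 1077.5 and 1499 ribosomal protein UMIs in erythroid-like cells of a, b and c. In HSC-like cells it was 2273, 1253 and 1518.5. The erythroid-like class joined clusters of 910 and 278 cells, at a median of 0.544 and 1.53 times the median UMIs of their library. Medians per cell and pooled counts weigh these clusters differently, and the medians do not separate them. At an adjusted p under 0.05, 46 of 84 genes were higher and 0 lower (edgeR; 17.3% and 19.5% of 8860 genes; 0 lower at an unadjusted p under 0.05, and 3 by DESeq2 unadjusted), with a median log2 change of 0.12 against 0.00 over all genes. Among genes whose libraries did not overlap, the largest gain was in Rplp0, the scaffold of the ribosomal stalk, at 7265, 7150 and 7590 CPM in erythroid-like against 5668, 5642 and 5830 in HSC-like cells (log2 change 0.40, SE 0.0459, adjusted p = 7.85e-13, edgeR). Rpl13a (0.37), Rpl14 (0.31), Rpl37a (0.30) and Rps10 (0.29) followed, and for these 5 genes all erythroid-like values were above all HSC-like values. By subunit, 31 of 49 large subunit and 14 of 33 small subunit genes were higher. Among 20 members whose mutation is known in Diamond-Blackfan anemia, 10 were higher and 0 lower, with a median change of 0.11. The call is sensitive to how libraries were handled: 18 genes were higher without the library block and 12 without library b. Relative to the summed ribosomal protein UMIs, 12 genes were higher and 17 lower (11.2% and 25.7% of all genes), with Rplp0 (0.28) and Rpl13a (0.24) at one end and Rpl39 (-0.18) and Rpl22l1 (-0.17) at the other. In mean CPM, 45 of the 84 genes had their highest class in erythroid-like cells, 16 in lymphoid-primed multipotent-like and 10 in megakaryocyte-like cells. All 84 had their lowest in late neutrophil-like cells. The shares of all genes with these highest and lowest classes were not counted. CPM are parts of all UMIs, of which granule and globin genes took 47.0% to 48.6% in late neutrophil-like cells.

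Between reporter-positive and Lin-kit+ libraries, the direction of most ribosomal protein genes depended on the scaling. With TMM, 52 of 84 were lower and 0 higher at an adjusted p under 0.05 (edgeR; 30.4% and 32.7% of 11991 genes; 0 higher at an unadjusted p under 0.05, and 64 lower and 0 higher by DESeq2). The median was -0.32, against 0.07 over all genes. With library totals, 41 were higher and 4 lower (54.9% and 16.6% of all genes), with a median of 0.22 against 0.60. The median gene itself moved by 0.53 between the scalings, and on both the median of the ribosomal protein genes lay below it. In CPM, 52 genes were higher and 7 lower in both reporter-positive libraries than in all 3 Lin-kit+ libraries (61.8% and 20.6% of all genes). Against HSC-like Lin-kit+ cells alone, 57 were lower and 0 higher with TMM (20.3% and 22.7% of 9858 genes), and 30 lower and 5 higher with totals (13.5% and 33.4%).

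A group of 4 genes was lower in all 4 of these fits: Rps27l, Rpl36al, Rps26 and Rps25. The 4 fits used the same 2 reporter-positive libraries. The share of all genes lower in all 4 was not counted. With totals alone, 16.6% of all genes were lower against all Lin-kit+ cells and 13.5% against HSC-like cells. Rps27l, a copy of Rps27 known as a target of p53, was at 876, 891 and 919 CPM in Lin-kit+ a, b and c and at 429 in Fgd5+ and 391 in HSC-Fgd5+ cells. The log2 change was -1.66 (SE 0.0798, adjusted p = 6.53e-06, edgeR with TMM), -1.12 with library totals, and -1.34 against HSC-like cells, where a, b and c had 876, 849 and 934 CPM. Rpl36al, a copy of Rpl36a outside the X chromosome, was at 1274, 1233 and 1195 CPM in the Lin-kit+ libraries and at 735 and 732 in the reporter-positive ones. Its change was -1.29 (SE 0.0725, adjusted p = 1.18e-05, edgeR with TMM), -0.75 with totals and -0.87 against HSC-like cells. For both genes the 2 reporter-positive libraries lay close together and far below the other 3. Rps26 (-0.80 with TMM, -0.26 with totals) and Rps25 (-0.78 and -0.24), small subunit proteins near the exit of the mRNA channel and the head, were lower by less. Rps26 was at 1664 and 1603 against 2053, 2072 and 1749 CPM. Rpl22, an RNA-binding protein of the large subunit, passed with TMM (-0.70) and not with totals (-0.16, adjusted p = 0.0645, edgeR).

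**Figure D4:**
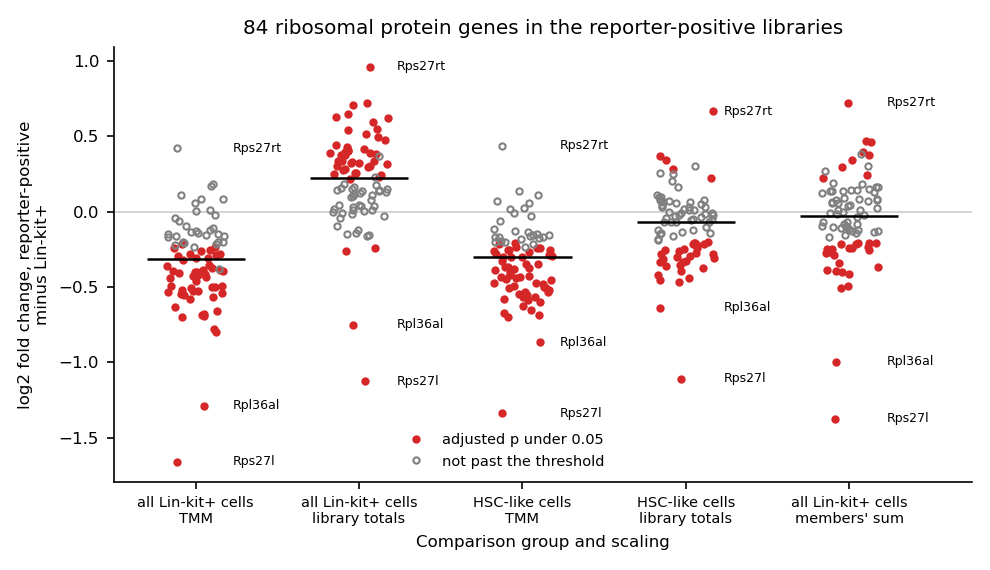
Log2 fold change, reporter-positive minus Lin-kit+ (y axis), of 84 ribosomal protein genes, as 1 point each with the median as a line, for all or only HSC-like Lin-kit+ cells and for 3 scalings, with genes past an adjusted p of 0.05 in red. The bulk moves from a median of -0.32 to 0.22 with the scaling, while Rps27l and Rpl36al are the lowest points of each column.

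Each gene was also set against the summed ribosomal protein UMIs of its library, which is another scaling. Shares of a sum depend on each other, so losses in some genes raise the shares of others. On this scale 9 of 84 genes were higher and 24 lower in reporter-positive libraries (edgeR; 42.8% and 21.7% of 11991 genes). Rps27l took 2802, 2913 and 3104 per 1000000 ribosomal protein UMIs in Lin-kit+ cells against 1149 and 1117 in reporter-positive cells (log2 change -1.38), and Rpl36al 4077, 4033 and 4037 against 1967 and 2090 (-0.998). Rps26 (-0.51), Rps25 (-0.49), Rpl22 (-0.41), Rpl27 (-0.39), Rps12 (-0.39), Rps27a, which is made as a fusion with ubiquitin (-0.37), and Rpl8 (-0.34) were also among the 10 with the largest loss. Those with a gain were Rps27rt (0.72), Rps27 (0.47), Rps14 (0.46), Rpl36 (0.39), Rpl21 (0.38), Rpl3, which lies beside the peptidyl transferase centre (0.34), Rpl9 (0.30), Rpl37a (0.24) and Rpl17 (0.22). For Rps27rt the Fgd5+ library, at 2471 per 1000000, was level with Lin-kit+ b at 2457, and only HSC-Fgd5+ was far higher, at 4137. Rps14, whose loss is known from the 5q- syndrome, took 18102, 17471 and 17838 per 1000000 in Lin-kit+ against 24441 and 24553 in reporter-positive libraries (SE 0.0696, adjusted p = 0.000541, edgeR). Against HSC-like Lin-kit+ cells, 19 of the 24 losses and 7 of the 9 gains were called again, Rps27l at -1.05, Rpl36al at -0.58 and Rps14 at 0.35 among them. This fit used the same reporter-positive libraries and part of the same Lin-kit+ cells, so it is no independent repeat. The share over all genes was not counted for it. Without Fgd5+ the losses numbered 11 and without HSC-Fgd5+ 12, in fits where the 1 remaining reporter-positive library is assumed to vary like the Lin-kit+ libraries.

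For 3 copies, the ratio to the parent gene or paralog differed between libraries and classes. The ratio of Rps27l to Rps27 UMIs was 0.217, 0.196 and 0.215 in Lin-kit+ a, b and c and 0.0602 and 0.0561 in the reporter-positive libraries. Over the Lin-kit+ classes it went from 0.115 ± 0.0102 in mast or basophil-like cells and 0.163 ± 0.0146 in HSC-like cells to 0.233 ± 0.0121 in early neutrophil-like and 0.239 ± 0.0112 in monocyte-like cells, so each class was above the reporter-positive libraries. The ratio of Rpl36al to Rpl36a was 0.407, 0.373 and 0.376 against 0.19 and 0.186, with 0.288 ± 0.0147 in HSC-like and 0.615 ± 0.0648 in dendritic-like cells. Rpl22l1 to Rpl22, a pair of paralogs, went the other way in reporter-positive cells, with 1.09, 1.11 and 1.17 against 1.29 and 1.44. It was 1.4 ± 0.0617 in early neutrophil-like and 0.637 ± 0.0537 in dendritic-like cells. No test was run on these ratios.

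For some copies the counts of the pair cannot be fully told apart. The annotated transcripts of Rps27 and Rps27rt share an identical run of 307 bases, and those of Rpl6 and Rpl6l one of 354 bases, with 98.7% identity over 871 aligned positions. Rps27rt was at 495, 752 and 578 CPM in a, b and c and at 924 and 1450 in Fgd5+ and HSC-Fgd5+ cells, a spread within each group that no other gene with a gain had. Its ratio to Rps27 was 0.125 to 0.15 on average in all 10 classes, and that of Rpl6l to Rpl6 was 0.15 to 0.173. By library, the ratio of Rps27rt to Rps27 was 0.123, 0.165 and 0.135 in a, b and c, 0.129 in Fgd5+ and 0.208 in HSC-Fgd5+. Rps27l and Rps27 shared no run over 11 bases (76.4% identity over 220 positions), Rpl36al and Rpl36a none over 24 (85.3% over 360), and Rpl22l1 and Rpl22 none over 26 (68.9% over 392), so reads of these pairs differ.

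Within the ribosomal protein UMIs, the share taken by a gene differed between classes by less than 1.5-fold for most genes. For the 84 genes with at least 100 UMIs, the mean share in the class with most was a median of 1.28-fold that in the class with least, and under 1.2-fold for 25 genes. Rpl13 (1.09) and Rpl24 (1.09) varied least between class means, Rpl13 with a wide spread between libraries. For 14 genes the fold was 1.5 or more and for 3 it was 2 or more, Rpl22l1 (2.11) and Rps19bp1 (2.08) among them. Rpl22l1 took 3302 ± 475 per 1000000 ribosomal protein UMIs in dendritic-like and 6975 ± 428 in early neutrophil-like cells. Rps29, which binds near the head of the small subunit, went from 17887 ± 1834 in erythroid-like to 32227 ± 3342 in late neutrophil-like cells, and Rpl12 from 7450 ± 201 to 4116 ± 294. Rpl21 was highest in megakaryocyte-like cells (16010 ± 1025) and Rpl10, an X-linked gene whose product joins the large subunit late, in mast or basophil-like cells (20311 ± 957). The class with most and the class with least did not overlap in their libraries for 77 genes, but those classes were picked from 10 by these values. Late neutrophil-like cells were the class with most for 18 genes and with least for 20, dendritic-like cells for 15 and 18.

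**Figure D5:**
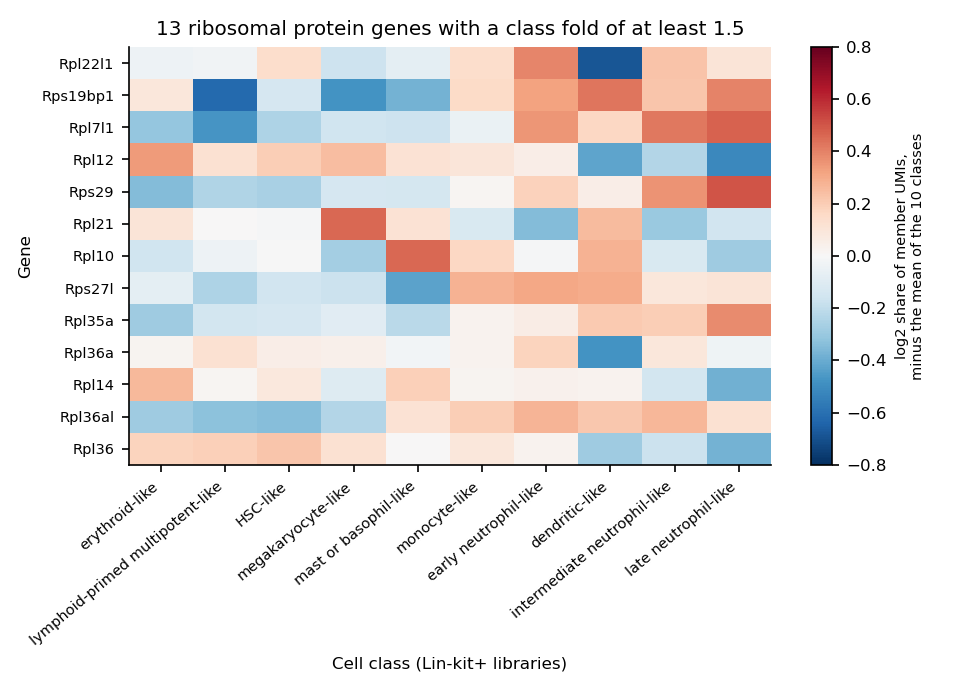
Share of ribosomal protein UMIs taken by each of 13 genes (rows) in 10 cell classes of the Lin-kit+ libraries (columns), as log2 of the mean share minus the mean over the classes (colour). Dendritic-like cells stand out with less Rpl22l1 and Rpl36a, and late neutrophil-like cells with more Rps29 and Rpl35a and less Rpl12.

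Other genes of protein synthesis were read from lists. Their log2 changes are those with TMM, which from early to late lie above the changes in CPM. Of 24 other TOP mRNAs, which encode translation factors and partners, 19 were lower and 3 higher from early to late neutrophil-like cells. Eef1g, of the elongation factor 1 complex, fell from 1013, 941 and 926 to 156, 149 and 172 CPM (log2 change with TMM -1.73). Npm1, a nucleolar chaperone, had -1.54 with TMM. Vim carries a TOP tract but encodes an intermediate filament. It rose from 95.8, 102 and 126 to 274, 371 and 356 CPM (log2 change with TMM 2.44). Nap1l1 (0.44) and Tpt1 (0.25) were higher only with TMM, since their CPM were lower in late cells, for Tpt1 1084, 1005 and 908 against 1613, 1542 and 1320. Of 44 ribosome biogenesis genes 36 were lower and 0 higher, by a median of -1.33 against -0.65 for the ribosomal protein genes, with Nle1 (-3.25), Grwd1 (-3.20) and Gnl3 (-2.66) lowest, of which the first 2 had under 3 CPM in each late library. Of 76 mitochondrial ribosomal protein genes 47 were lower and 4 higher (median -0.48). In erythroid-like against HSC-like cells, 24 biogenesis genes were higher and 0 lower (median 0.34), led by Rrp9 (1.04), Bysl (0.84) and Nop2 (0.68), which act in rRNA processing. In reporter-positive against Lin-kit+ libraries with TMM, 30 biogenesis genes and 63 mitochondrial ribosomal protein genes were lower, with medians of -0.57 and -0.90, and 0 and 1 were higher. Library totals would move these medians up by about the 0.53 given above. Of the 24 other TOP mRNAs, 15 were lower and 4 higher (median -0.46). The largest change was the fall of Vim, from 413, 443 and 451 to 160 and 131 CPM (log2 change with TMM -2.12). Pno1, which assembles the small subunit, had -1.86 and Mrpl33 -1.85, and both were also lower in CPM. The TOP mRNA Eif4a2, an RNA helicase of translation initiation, rose from 118, 114 and 116 to 499 and 559 CPM (log2 change with TMM 1.65).

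The rarest genes were Rpl3l, known from muscle, and Rpl39l, known from the testis. Rpl3l had 42 UMIs in 42 cells, all of them in Lin-kit+ libraries, of which 9, 13 and 6 lay in early, intermediate and late neutrophil-like cells, and Rpl39l had 23 UMIs in 17 cells. In HSC-like Lin-kit+ cells both were at 0, and Rpl3l was at 0 in both reporter-positive libraries. Rpl39l had 3 UMIs in Fgd5+ and 5 in HSC-Fgd5+ cells, or 0.72 and 2.31 CPM. In Lin-kit+ a, b and c it was at 0, 0.428 and 0.194 CPM. Such counts are too low to compare. The 15 rows with -ps in their names, which the rule leaves out, held 372345 UMIs, or 1.71% of those of the ribosomal protein genes.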

How the data were processed

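Single cells were captured with the 10x Chromium 3′ v2 chemistry. The authors made the deposited raw UMI counts per gene and cell with Cell Ranger from 2 combined sequencing runs. The submitters' processing notes name Cell Ranger 1.3 and 2.1, Seurat 2.3.4 and the build mm10, and which library used which version was not given in the sources used here. Counts are whole numbers and were used without rescaling. Counting intervals cover counting error only.

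Members and gene lists were chosen with earlier results of these data known. Cells were clustered with scanpy 1.11.5 and Leiden (leidenalg 0.10.2, resolution 1, 2000 variable genes, 20 components, 15 neighbours) after removal of the ribosomal protein genes, and thresholds for naming clusters were set after the clusters were seen. Doublets were called with Scrublet and kept, except in an alternative. UMIs were summed per library, or per class and Lin-kit+ library (at least 20 cells), and tested with edgeR 4.0.16 (quasi-likelihood, TMM, filterByExpr, Benjamini-Hochberg over all genes tested, threshold 0.05) in R 4.3.3. All classes shared 1 fit with library as block, since the classes come from the same libraries. DESeq2 1.42.0 was an alternative. Named genes were, in each comparison, the 5 with the largest change each way (10 relative to the summed UMIs) past the threshold, with groups that did not overlap and at least 100 UMIs, plus copies with their parents and the 3 largest of each other list. Genes with the smallest fall and those in the class composition beyond the extremes were chosen after their values were seen. On simulated counts for the libraries (11296 to 11322 genes), 72.7% of 2-fold and 94.7% of 4-fold changes were recovered. For the classes (7745 to 7807 genes) these were 89.7% and 100%. The simulations changed 200 genes, as many up as down, at a fixed spread. Smaller changes and shifts of most genes were not simulated. Some genes of the group are not reported here by name.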

Additional observations from a re-analysis of the deposited data

How the results depend on the processing

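Between reporter-positive and Lin-kit+ libraries the direction rests on scaling: library totals gave 41 genes higher and 4 lower, and totals against HSC-like cells 5 and 30. With totals against all Lin-kit+ cells, Rpl36a (0.29) and Rpl22l1 (0.12, adjusted p = 0.165, edgeR) were among the genes that changed sign. Limits on UMIs and mitochondrial genes gave 2 higher. Leaving out 1 library gave 0 to 1 higher and 40 to 59 lower, and relative to the summed ribosomal protein UMIs 7 to 10 higher and 11 to 22 lower. The difference in share became -1.62 points against HSC-like cells, 2.70 without granule and globin UMIs and 3.41 with medians over cells, and was 4.57 to 6.89 without 1 library. Where 1 reporter-positive library was left out, the other is assumed to vary like the Lin-kit+ libraries. No paired analysis was possible for this comparison because the labels number no replicates and nothing ties a reporter-positive to a Lin-kit+ library.

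Classes were fitted with library as a replicate block. Without the block, 81 genes were lower in late, 44 lower in intermediate neutrophil-like and 18 higher in erythroid-like cells. Leaving out 1 library gave 84 lower (late), 32 to 69 lower (intermediate) and 12 to 51 higher (erythroid-like), the lowest counts without library b. The summed ribosomal protein UMIs as scale, chosen after seeing the data, gave 25 higher and 33 lower (late), 12 and 19 (intermediate), and 12 and 17 (erythroid-like). Shares over all genes on this scale are given above for late and erythroid-like cells and were not counted for intermediate cells. Stages set cell by cell gave 3 higher in intermediate cells, and resolution 1.5 gave 1 lower in erythroid-like cells. The erythroid-like minus late difference in share was 19.6 points without granule and globin UMIs, 30.7 with clusters made with the ribosomal protein genes, and 28.8 to 30.0 without 1 library. The causes were not tested. Of the single-gene results followed under alternatives, 507 kept direction and side of the threshold, 17 lost and 6 gained significance, and 2 reversed. Those results cover only part of the group. They do not describe the whole group, whose direction between reporter-positive and Lin-kit+ libraries changed with library totals.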

Other observations

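Some ribosomal protein genes differed between the 3 Lin-kit+ libraries. The highest library was a median of 1.09-fold the lowest, and over 1.5-fold for 5 genes. Rps2 had 4120, 3441 and 1365 CPM in a, b and c, and 3891 and 3805 in Fgd5+ and HSC-Fgd5+ cells, so that library c stood apart by 3.02-fold. The same gap was 2.86-fold in HSC-like and 2.90-fold in erythroid-like cells. Rpl13 had 7210, 6543 and 4669 CPM in a, b and c. Rps19bp1 (1.75-fold), Rpl6l (1.55-fold) and Rps27rt (1.52-fold) were the others. Between the reporter-positive libraries the median was 1.08-fold, and Rps27rt (1.57-fold) was the one gene over 1.5-fold.

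A cluster of 29 late neutrophil-like cells had a median of 9868 UMIs and a median ribosomal protein share of 24.2%, above the 10.7% mean share of that class.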
